A study of Mus musculus with 2 samples.

Results

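The genes described here are Mtdh, 2 genes whose proteins bind its product (Snd1 and Rxra), and 6 genes of the enzymes that attach or remove palmitate (Zdhhc5, Zdhhc6, Ppt1, Ppt2, Lypla1 and Lypla2). They were chosen by name and are 9 of the 19465 genes in the deposited count tables. RNA was measured with the Visium assay for formalin-fixed, paraffin-embedded (FFPE) tissue, in which pairs of probes hybridise to transcripts on a slide of barcoded spots and each captured molecule is counted once as a unique molecular identifier (UMI). The samples were 1 liver section of 5 μm from an AEG-1-WT mouse and 1 from an AEG-1-C75S mouse, both 8-week-old, naive, untreated females, littermates from matings of heterozygotes. AEG-1-C75S is a CRISPR/Cas9 knock-in in which cysteine 75 of AEG-1, the protein made from Mtdh, is replaced by serine. The samples are called WT and C75S below. The labels do not say whether the C75S animal carried the change on both alleles. With 1 animal and 1 section per genotype no test between genotypes was possible, so every interval below is a 95% interval of counting error alone and a difference between the sections cannot be told apart from a difference between any pair of mice or sections.

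Palmitoylation attaches a fatty acid to cysteine residues of a protein through a thioester bond and so anchors the protein to membranes. Enzymes of the ZDHHC family, named for an Asp-His-His-Cys motif in their active site, transfer the palmitate. Thioesterases take it off again, either in the cytosol (the acyl protein thioesterases encoded by Lypla1 and Lypla2) or in the lysosome (PPT1). PPT2 is a lysosomal thioesterase related to PPT1. AEG-1 is a scaffold protein of the endoplasmic reticulum and nucleus that binds SND1, a nuclease of the RNA-induced silencing complex (RISC), and RXRα, the nuclear receptor that pairs with PPARα, FXR, LXR, CAR and other receptors in hepatocytes. Since the modification acts on the protein, the level of an RNA does not tell how much of AEG-1 is palmitoylated.

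The codon that the knock-in changes lies in the first of 12 coding exons of Mtdh (chr15:34082694-34145624, plus strand, GRCm38, the assembly also called mm10, GENCODE M21 annotation). The annotated coding sequence has 579 codons, of which 2 encode cysteine, at positions 75 and 485. The probes of this assay report that a transcript is present and their positions were not used here, so the counts of Mtdh do not check the genotype of either animal.

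The active-site motifs of the enzymes are shown to set the transferases beside a thioesterase. Capitals mark the 4 codons of the DHHC motif in Zdhhc5 (codons 131 to 134, coding exon 4, chr2:84694713-84694742, minus strand) and Zdhhc6 (codons 126 to 129, coding exon 3, chr19:55311745-55311780, minus strand). In Ppt1 they mark codons 113 to 117, a glycine-x-serine-x-glycine motif (x is any residue) that holds the catalytic serine of many lipases and thioesterases (coding exon 3, chr4:122844508-122844543, plus strand).
Zdhhc5 DHHC: gaatttGACCATCACTGCccttgggtaaac
Zdhhc6 DHHC: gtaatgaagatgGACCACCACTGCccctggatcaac
Ppt1 motif: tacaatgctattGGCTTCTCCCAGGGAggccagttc
The DHHC letters occurred in the reading frames of 31 of 17203 annotated genes (0.180%). The glycine-x-serine-x-glycine pattern is looser, and its share over all genes was not counted. It also occurred in Lypla1 (from codon 117), Lypla2 (from codon 120) and the nuclease gene Snd1 (from codon 9), but not in Ppt2. The other members lie at chr6:28475139-28935162 (Snd1), chr2:27676440-27762957 (Rxra), chr17:34616662-34628510 (Ppt2), chr1:4807788-4848410 (Lypla1) and chr4:135968224-135972626 (Lypla2).

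After removal of 7 and 4 spots with more than 50000 UMIs, 2309 WT spots held 42246988 UMIs (median 16830 per spot) and 2163 C75S spots held 41674347 (median 18808). Depth varied more in C75S, with 5th and 95th percentiles of 6599 and 33880 UMIs per spot against 11460 and 29951 in WT. The window of 10000 to 30000 UMIs used below as an alternative kept 2162 WT spots and 1518 C75S spots. Levels below are UMIs per 1000000 UMIs of the section or of a group of spots (CPM). The number of probes per gene was not used, so a level is compared between spots and sections and never between genes. A total of 1887 spot barcodes occurred in both sections, which come from a barcode list that the capture areas share. Both sections carried the markers of liver: 5 hepatocyte genes (Alb, Apoa1, Ttr, Serpina3k and Cps1) summed to 177561 CPM in WT and 183604 CPM in C75S, whereas 4 lymphocyte markers summed to 17.3 and 20.3 CPM. A spot covers several cells, so fewer cells of a type and less RNA per cell cannot be told apart.

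Mtdh itself stood at nearly the same level in both livers and in every part of the lobule. Its RNA was counted 3143 times in WT (74.4 CPM, 71.8 to 77.0) and 3056 times in C75S (73.3 CPM, 70.8 to 76.0). The intervals of the levels overlap, and the log2 ratio (C75S over WT) was -0.02 (-0.09 to 0.05). Mtdh UMIs were found in 71.9% of WT spots and 70.6% of C75S spots, and in 18.4% and 20.3% once every spot was thinned to 3000 UMIs so that depth was alike. Up to 7 molecules were counted in 1 WT spot and up to 8 in 1 C75S spot. The scatter of its spot counts around values proportional to depth, given as a Pearson chi-square per degree of freedom, was 1.01 in each section, where 1 is the scatter of random counting. The median over the 4357 genes with at least 1000 UMIs in each section was 1.02 and 1.03, and Cyp2e1, a detoxifying enzyme made around the central vein, reached 45.3 and 39.4. By this measure the Mtdh counts showed no scatter between spots beyond that of counting. The measure does not use the position of a spot and can miss small gradients. Rxra, which was higher towards the central vein in both sections (below), stood at only 1.09 in each.

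Position in the lobule was read from the ratio of Cyp2f2, an enzyme of periportal hepatocytes, to Cyp2e1. In each section the spots were ranked by (Cyp2f2 + 1)/(Cyp2e1 + 1) and cut into 5 groups of equal size, called quintiles, of which quintile 1 is the most periportal and quintile 5 the most pericentral. Quintiles are ranks within a section and need not be the same zone in both. Cyp2f2 itself was higher in C75S (log2 ratio 0.27, 0.26 to 0.29), unlike the other periportal markers examined. Those had ratios below 0, at -0.66 for Gls2, -0.48 for Arg1, -0.31 for Pck1, -0.18 for Hal and -0.04 for Hsd17b13. Cyp2e1 had -0.07 (-0.08 to -0.06). The median axis ratio in WT and C75S was 1.09 and 1.08 in quintile 1, 0.18 and 0.23 in quintile 3, and 0.038 and 0.060 in quintile 5. From quintile 1 to quintile 5 the Mtdh level was 71.0, 75.8, 75.03, 74.6 and 75.4 CPM in WT. In C75S it was 71.9, 75.6, 72.5, 73.7 and 72.7 CPM. No neighbouring pair of quintiles differed beyond its counting interval, and the largest spread between any of the 10 groups was 0.09 on the log2(CPM + 1) scale. The gradient, meaning the log2 ratio of quintile 5 over quintile 1, was 0.09 (-0.08 to 0.25) in WT and 0.02 (-0.15 to 0.18) in C75S. Their difference of -0.07 had an interval from -0.30 to 0.16.

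**Figure D1:**
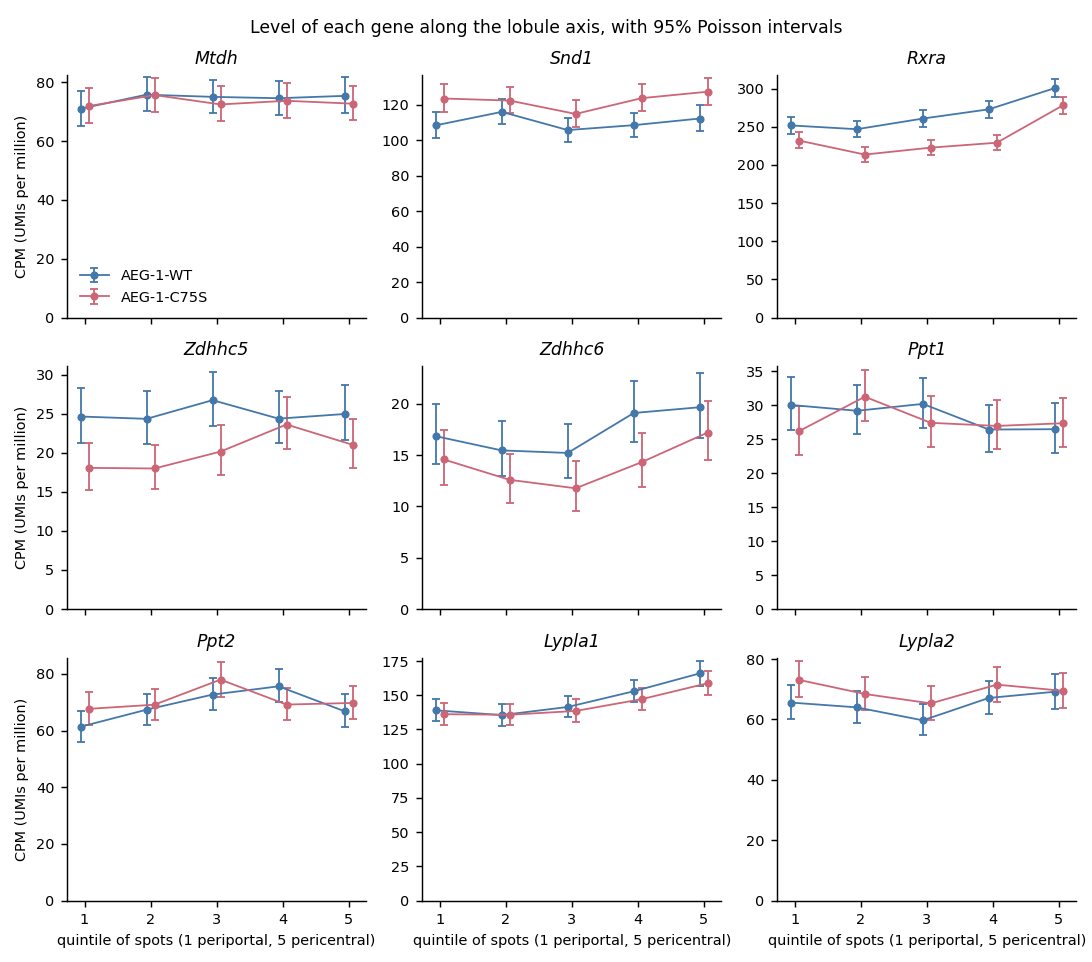
Level of each of the 9 genes in CPM (vertical axes from 0) in 5 equal groups of spots from periportal (1) to pericentral (5), for the WT (blue) and C75S (red) section, with 95% Poisson intervals of the counts. Mtdh is flat and the sections overlap, Rxra is highest in quintile 5 of both sections, Snd1 lies above WT in C75S in all 5 quintiles and Zdhhc5 and Zdhhc6 lie below it in all 5.

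Among the partners, Snd1 was slightly higher and Rxra slightly lower in the C75S section, both by less than the size used here to call a gene. A gene was called when its log2 ratio was at least 0.25 in size (1.19-fold) with an interval that did not reach 0. Among the 12004 genes whose UMIs over the sections came to 50 or more, 7.94% were called higher in C75S and 16.3% lower, and the median log2 ratio was -0.05. Of the 9 genes 0 were called higher and 2 lower, with a median of -0.03. The background share of genes called lower is large, so 2 of 9 is read as a description of these sections.

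Snd1, which encodes a nuclease that degrades RNA in RISC and also binds promoters as a coactivator, was counted 4650 times in WT (110.1 CPM) and 5099 times in C75S (122.4 CPM). The log2 ratio was 0.15 (0.10 to 0.21), below the called size. It was 0.20 with totals that left out the 20 most abundant genes, 0.21 with TMM factors and 0.21 after centring on the median gene. From periportal to pericentral the Snd1 level was 108.3, 115.9, 105.7, 108.4 and 112.2 CPM in WT. In C75S it was 123.5, 122.3, 114.8, 123.7 and 127.3 CPM. The C75S level was higher in all 5 quintiles, by 0.08 to 0.19 on the log2 scale, and 3 of the 5 intervals lay above 0. Along the axis it had no gradient beyond counting error, with 0.05 (-0.09 to 0.19) in WT and 0.04 (-0.08 to 0.17) in C75S.

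Rxra, the gene of the shared partner of the PPAR, FXR, LXR and CAR receptors, was counted 11252 times in WT (266.3 CPM) and 9795 times in C75S (235.0 CPM). The log2 ratio was -0.18 (-0.22 to -0.14), again short of the called size. The size depended on the scaling. With totals that left out the 20 most abundant genes the ratio was -0.14 (-0.18 to -0.10). With TMM factors it was -0.12 (-0.16 to -0.08), and after centring on the median gene -0.13 (-0.17 to -0.09). The ratios within quintiles below were not rescaled in these ways. The level from periportal to pericentral was 251.9, 246.9, 260.9, 273.0 and 300.8 CPM in WT. In C75S it was 232.1, 213.7, 222.8, 229.2 and 278.1 CPM. C75S was lower in all 5 quintiles, by 0.11 to 0.25, with all 5 intervals below 0. The lower level was thus seen in every quintile, each set by rank within its section.

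**Figure D2:**
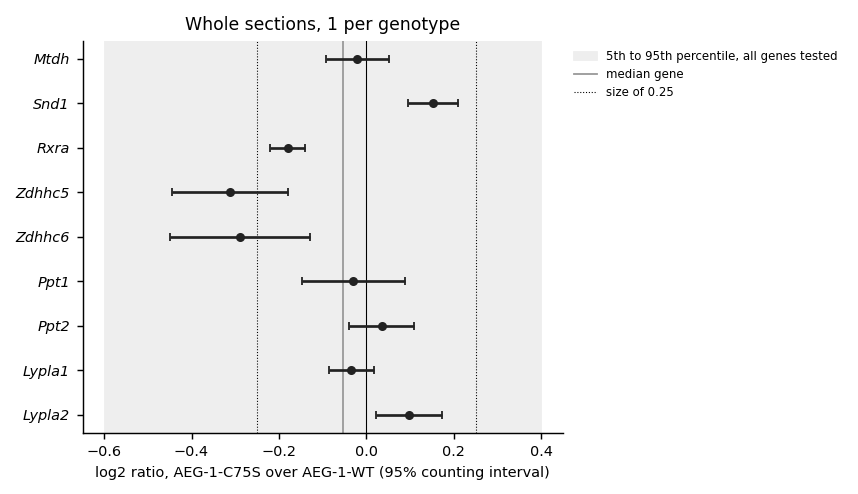
log2 ratio (C75S over WT) over the whole sections for each of the 9 genes, with 95% counting intervals. The grey band spans the 5th to 95th percentile of all genes tested (-0.60 to 0.40), and the dotted lines mark a size of 0.25, which only Zdhhc5 (-0.31) and Zdhhc6 (-0.29) passed.

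Both palmitoyltransferase genes of the set were lower in the C75S section. Zdhhc5 encodes a transferase of the plasma membrane, and Zdhhc6 a transferase of the endoplasmic reticulum. Zdhhc5 was counted 1057 times in WT (25.0 CPM, 23.5 to 26.6) and 840 times in C75S (20.2 CPM, 18.8 to 21.6), a log2 ratio of -0.31 (-0.44 to -0.18). Zdhhc6 was counted 727 times in WT (17.2 CPM, 15.98 to 18.5) and 587 times in C75S (14.1 CPM, 13.0 to 15.3), a log2 ratio of -0.29 (-0.45 to -0.13). For each gene the intervals of the 2 levels did not overlap. The share of spots with a Zdhhc5 UMI was 36.2% in WT and 30.3% in C75S, and at 3000 UMIs per spot 6.85% and 5.88%. For Zdhhc6 the shares were 26.1% and 22.8%, and 5.16% and 4.31% after thinning. The thinned shares had overlapping intervals for both genes.

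Along the lobule the Zdhhc5 level was 24.6, 24.3, 26.7, 24.4 and 25.0 CPM in WT and 18.1, 18.0, 20.1, 23.6 and 21.02 CPM in C75S. It was lower in C75S in all 5 quintiles. The log2 ratios in the 3 more periportal quintiles were -0.45, -0.44 and -0.41, each with an interval below 0, against -0.05 (-0.33 to 0.24) and -0.25 (-0.55 to 0.05) in the more pericentral ones. The difference between the gradients of the sections, 0.20, had an interval from -0.23 to 0.63. It uses quintiles 1 and 5 alone. Whether the ratio was lower over the 3 more periportal quintiles together than over the more pericentral ones was not tested. Zdhhc6 stood at 16.8, 15.5, 15.2, 19.1 and 19.7 CPM in WT and at 14.6, 12.6, 11.8, 14.3 and 17.2 CPM in C75S. It too was lower in all 5 quintiles, by 0.19 to 0.42, but only in quintile 4 did the interval lie below 0.

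Zdhhc5 was called lower under 8 of 9 other ways of computing the ratio and Zdhhc6 under 4 of 9, with the direction kept in all of them. Scaling by TMM factors gave -0.26 (-0.39 to -0.12) for Zdhhc5 and -0.23 (-0.39 to -0.07) for Zdhhc6. The levels of cell type markers also differed between the sections. Kupffer cell markers summed to 866 CPM in WT and 1159 CPM in C75S (4 of 5 genes called higher) and stellate cell markers to 551 and 703 CPM (3 of 4 higher). Cholangiocyte markers summed to 114 and 84.9 CPM (2 of 2 lower), red blood cell markers to 611 and 404 CPM (3 of 3 lower) and sinusoidal endothelium markers to 456 and 471 CPM (0 of 4 called). None of these markers was at 0 in either section, and their part in the ratios of the members was not tested. Without the 10% of spots richest in portal tract markers, the ratio was -0.28 (-0.42 to -0.14) for Zdhhc5 and -0.27 (-0.43 to -0.10) for Zdhhc6.

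The wider ZDHHC family had genes on both sides of 0. Its 24 genes included 4 with 0 UMIs in both sections (Zdhhc11, Zdhhc19, Zdhhc22 and Zdhhc25), which allows levels of up to 0.0710 CPM in WT and 0.0720 CPM in C75S at the limit of 3 counts. Of the 18 with enough UMIs, 5 were called lower in C75S and 2 higher, beside 16.3% and 7.94% of all genes. The median log2 ratio was -0.11 beside -0.05 over all genes. Besides Zdhhc5 and Zdhhc6, the lower genes were Zdhhc7, a transferase of the Golgi (827 and 668 UMIs, -0.29, -0.44 to -0.14), Zdhhc14 (349 and 284 UMIs, -0.28, -0.51 to -0.05) and Zdhhc2. The last, named after its values were seen, rested on 72 and 43 UMIs (-0.72, -1.30 to -0.16). Higher in C75S were Zdhhc13 (327 and 421 UMIs, 0.38, 0.17 to 0.60) and Zdhhc21 (219 and 261 UMIs, 0.27, 0.01 to 0.54). The balance of these calls depended on the scaling: with totals that left out the 20 most abundant genes, with TMM factors or after centring on the median gene, 2 were called lower (Zdhhc2 and Zdhhc5) and 3 higher (Zdhhc13, Zdhhc20 and Zdhhc21). Under each of the 3, 11 of 18 ratios remained below 0, where the median over all genes was in turn -0.008, 0.004 and 0. Of all 12004 genes, these scalings in turn called 1568, 1459 and 1492 lower and 1240, 1348 and 1324 higher.

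**Figure D3:**
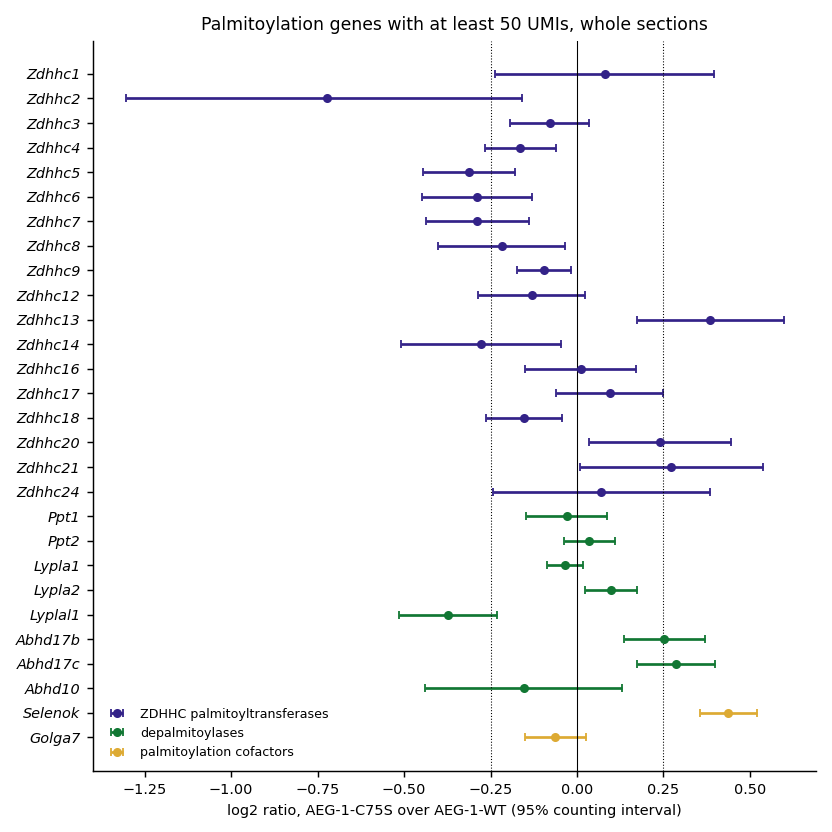
log2 ratio (C75S over WT) over the whole sections, with 95% counting intervals, for the palmitoyltransferases, depalmitoylases and cofactors with at least 50 UMIs. Dotted lines mark a size of 0.25. Both enzyme families have genes on each side of 0, and the values run from -0.72 (Zdhhc2) to 0.44 (the cofactor gene Selenok).

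The 4 thioesterase genes of the set were near their WT levels in C75S. Ppt1 encodes a lysosomal hydrolase whose loss causes a form of neuronal ceroid lipofuscinosis. It was counted 1203 times in WT (28.5 CPM) and 1162 times in C75S (27.9 CPM), a log2 ratio of -0.03 (-0.15 to 0.09). Its lysosomal relative Ppt2 had 2913 UMIs (69.0 CPM) and 2945 UMIs (70.7 CPM), a ratio of 0.04 (-0.04 to 0.11). Lypla1, the gene of acyl protein thioesterase 1, had 6200 UMIs (146.8 CPM) and 5972 UMIs (143.3 CPM), a ratio of -0.03 (-0.09 to 0.02). Lypla2, the gene of acyl protein thioesterase 2, had 2747 UMIs (65.0 CPM) and 2900 UMIs (69.6 CPM). Its ratio was 0.10 (0.02 to 0.17), with an interval off 0 at under the called size. With totals that left out the 20 most abundant genes, with TMM factors and after centring it was 0.14, 0.15 and 0.15, and that of Ppt2 was 0.08, 0.09 and 0.09, with intervals above 0 for both genes.

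The list of depalmitoylases, in which Ppt2 stands as the relative of Ppt1, had 8 genes in the tables. Of these, 2 were called higher in C75S and 1 lower, beside 7.94% of all genes called higher and 16.3% lower. The median log2 ratio was 0.003. Abhd17b (1089 and 1280 UMIs, 0.25, 0.14 to 0.37) and Abhd17c (1180 and 1420 UMIs, 0.29, 0.17 to 0.40) encode serine hydrolases that take palmitate off RAS and synaptic proteins. Lyplal1, which encodes a relative of the acyl protein thioesterases, was lower (939 and 715 UMIs, -0.37, -0.52 to -0.23). These 3 calls were also made under the 3 other scalings. Of the genes for cofactors of the transferases, Selenok, whose selenoprotein acts with ZDHHC6, was higher in C75S (2076 UMIs or 49.1 CPM against 2774 UMIs or 66.6 CPM, 0.44, 0.35 to 0.52), while Golga7, whose product is a partner of ZDHHC9, had 2208 and 2086 UMIs (-0.06, -0.15 to 0.02). Zdhhc6 and Selenok, whose products form a complex, thus had ratios of opposite sign.

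Along the lobule, Rxra was the only member called in both sections. Of 11066 genes with at least 50 UMIs in each section, 8.95% were called higher and 3.13% lower in the pericentral quintile in both sections, and 1 of the 9 members was called higher and 0 lower. The Rxra gradient was 0.26 (0.17 to 0.34) in WT and 0.26 (0.17 to 0.35) in C75S, and the difference between them was 0.00 (-0.12 to 0.13). The median gene had a gradient of 0.11 in WT and 0.09 in C75S, so that Rxra stood 0.14 and 0.17 above it. Summed hepatocyte markers, led by Alb, went from 206759 to 144531 CPM between quintile 1 and quintile 5 in WT and from 208112 to 150969 CPM in C75S. The list was mixed. In WT and C75S the gradients were -0.72 and -0.66 for Alb, -0.32 and -0.33 for Serpina3k and -0.49 and -0.66 for Cps1. Those of Ttr were 0.13 and 0.08, and those of Apoa1 0.02 and -0.07. With totals that left out the 20 most abundant genes the Rxra gradient was 0.14 (0.05 to 0.22) and 0.15 (0.06 to 0.24). Its direction was kept under all 9 alternatives, but the called size in both sections under 1 of them.

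In both sections the largest difference between neighbouring quintiles of Rxra was at the pericentral end. Quintile 5 exceeded quintile 4 by 0.14 (0.06 to 0.22) in WT and by 0.28 (0.19 to 0.37) in C75S. In C75S quintile 2 was below quintile 1 by a log2 ratio of -0.12 (-0.21 to -0.03). The other neighbouring quintiles of Rxra did not differ beyond their counting intervals. Lypla1 lay just outside the rule for a call, with gradients of 0.26 (0.14 to 0.37) in WT and 0.22 (0.11 to 0.34) in C75S. Its level was 139.0, 135.5, 141.5, 152.9 and 166.0 CPM in WT and 136.2, 135.8, 138.5, 147.2 and 158.8 CPM in C75S, so both sections were highest in the pericentral quintile. Relative to the median gene its gradient was 0.14 (0.03 to 0.26) and 0.13 (0.01 to 0.25). With totals that left out the 20 most abundant genes it was 0.14 (0.02 to 0.25) and 0.11 (-0.004 to 0.23). Thinning to 3000 UMIs gave 0.28 (-0.003 to 0.56) and 0.29 (-0.005 to 0.60).

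The remaining members had no gradient with an interval off 0 in either section at these settings. Under other settings there were intervals off 0 for Ppt2 (0.20, 0.02 to 0.37) and Zdhhc6 (0.34, 0.02 to 0.67) in WT with the axis drawn from Hal, Gls2, Hsd17b13, Cyp1a2 and Oat, for Ppt1 in WT after centring (-0.30, -0.57 to -0.02) and with totals that left out the 20 most abundant genes (-0.30, -0.58 to -0.03), and for Lypla2 in WT with 3 groups along the axis (0.14, 0.002 to 0.27) and in C75S with those totals (-0.18, -0.35 to -0.02). Zdhhc6 had gradients of 0.22 (-0.12 to 0.57) and 0.24 (-0.12 to 0.60), and its lower counts left wide intervals. The Ppt2 level was 61.3, 67.4, 72.7, 75.6 and 66.8 CPM in WT and 67.6, 69.1, 78.0, 69.2 and 69.7 CPM in C75S. It was highest inside the lobule, in quintile 4 of WT and quintile 3 of C75S. The next quintile was lower by a log2 ratio of -0.18 (-0.35 to -0.01) in WT and -0.17 (-0.34 to -0.01) in C75S. These steps were picked after the levels were seen and lie at different places in the sections. From quintile 3 to 4 the WT value was 0.06 (-0.10 to 0.22). From quintile 4 to 5 the C75S value was 0.01 (-0.16 to 0.18). A shared peak is thus not shown. Zdhhc3, which encodes a Golgi transferase, was the 1 gene of 17 tested in the ZDHHC family that was called higher pericentrally in both sections, with gradients of 0.43 and 0.27. Of all genes 8.95% were called so, and Zdhhc3 was not called after centring on the median gene.

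Rxra and 4 of its dimer partners were called higher pericentrally. In the list of 17 RXR receptors and partners, 16 had enough UMIs. Of these, 5 were called higher in the pericentral quintile in both sections and 0 lower, beside 8.95% and 3.13% of all genes. The gradients in WT and C75S were 0.85 and 0.85 for Nr1i3 (CAR, the receptor that induces drug-metabolising enzymes), 0.64 and 0.62 for Ppara (the fasting receptor of fatty acid oxidation) and 0.47 and 0.43 for Nr1h4 (FXR, the bile acid receptor). Pparg, named after its values were seen, had 1.54 and 1.05 on 502 and 562 UMIs. The Rxra gradient was thus the smallest of the 5 in each section. Before centring, intervals above 0 in both sections, with a value under the called size in at least 1, were also those of Nr1i2 (PXR, a sensor of drugs and bile acids, 0.19 and 0.27), Nr1h2 (LXRβ, 0.20 and 0.22) and Nr1h3 (LXRα, 0.15 and 0.20), the LXRs being receptors for oxysterols. In WT the gradient of the median gene (0.11) lay inside the intervals of Nr1i2, Nr1h2 and Nr1h3. In C75S that of the median gene (0.09) lay inside those of Nr1h2 and Nr1h3 and below that of Nr1i2. After centring on the median gene, and with totals that left out the 20 most abundant genes, Nr1i3, Ppara, Nr1h4 and Pparg were still called and Rxra was not. Of all 11066 genes, 547 and 515 were then called higher.

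**Figure D4:**
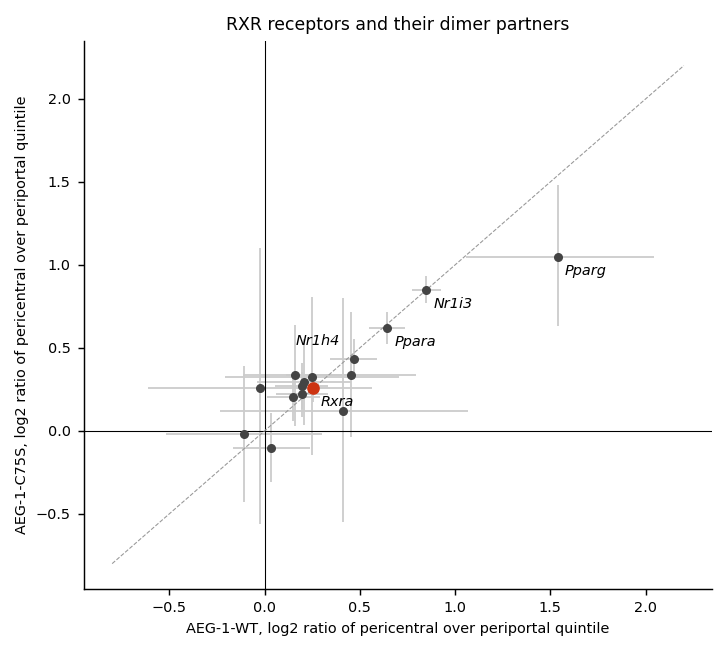
Gradient (log2 ratio of the pericentral over the periportal quintile) in WT (horizontal) and C75S (vertical) for 16 RXR receptors and dimer partners, with 95% counting intervals in grey and the line of equal values dashed. Rxra (red, 0.26 in both sections) and the 4 named partners were called higher pericentrally in both sections.

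Between the sections, 15 of the 16 receptors (all but Pparg at 0.18) had a log2 ratio of C75S over WT below 0. Their median was -0.18 beside -0.05 over all genes. After centring on the median gene or with TMM factors 13 of 16 were below 0. The medians of the list were then -0.13 and -0.12, beside 0 and 0.004 over all genes. Called genes numbered 4 and all were lower in C75S, beside 16.3% of all genes called lower and 7.94% higher. The 4 were called lower under these scalings too. They were Rxrg (789 and 568 UMIs, -0.45, -0.61 to -0.30) and the receptors for thyroid hormone and retinoic acid Thrb (1568 and 1200 UMIs, -0.37, -0.48 to -0.26), Rara (1202 and 949 UMIs, -0.32, -0.45 to -0.20) and Rarb (289 and 146 UMIs, -0.97, -1.26 to -0.67). Nr1i3, with 401.1 CPM in WT and 338.8 CPM in C75S, lay just under the called size at -0.24 (-0.28 to -0.21). Of 8 nuclear receptor coregulators 0 were called between the sections. Ncor1, a corepressor, was the 1 of 8 called higher pericentrally in both sections (0.31 and 0.29), beside 8.95% of all genes. It was not called after centring. The median ratio of the coregulators was -0.03, and 0.03 after centring.

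Beside Snd1, 10 genes of RISC and of small RNA processing gave 0 calls higher and 2 lower in C75S, with a median of -0.14 beside -0.05 over all genes. Of all genes 7.94% were called higher and 16.3% lower, and after centring on the median gene the median of the list was -0.09 with 1 call lower. The lower genes were Prkra, a partner of Dicer (1095 and 881 UMIs, -0.29, -0.42 to -0.17), and Tnrc6c, a scaffold of the silencing complex (861 and 667 UMIs, -0.35, -0.50 to -0.20), of which Tnrc6c alone was called under the 3 other scalings. Ago2, the slicing Argonaute, had 651 and 576 UMIs (-0.16, -0.32 to 0.01). Among 4 other reported partners of AEG-1, Zbtb16, the gene of the repressor PLZF, was higher in C75S (366 UMIs or 8.66 CPM against 653 UMIs or 15.7 CPM, 0.85, 0.67 to 1.04). Bccip was the 1 of 4 called higher pericentrally in both sections (0.28 and 0.30, not after centring), beside 8.95% of all genes. Rela and Yy1 were not called in either comparison.

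The spots with the most Ppt1 UMIs held 12 in C75S and 6 in WT. The C75S spot, of 34525 UMIs, also held 304 UMIs of MHC class II genes, which mark antigen-presenting cells, a share above that of 99.95% of spots in that section. In WT the 2 spots with 6 Ppt1 UMIs lay above 99.5% and 98.7% of spots by the same share, and 1 of the spots with 5 Ppt1 UMIs above 65.4%. The C75S spot with 12 also held 50 UMIs of the cholangiocyte genes Spp1 and Epcam, a share above that of 99.4% of spots. By that share the 2 WT spots with 6 Ppt1 UMIs lay above 98.3% and 49.0% of spots. The C75S spot with 7 Ppt1 UMIs held 0 of the cholangiocyte genes and 96 of the MHC class II genes. The scatter of Ppt1 spot counts was the highest of the 9 genes in C75S (1.14) and stood at 1.04 in WT. For this reason spots rich in 4 MHC class II genes (H2-Aa, H2-Ab1, H2-Eb1 and Cd74) were added, after these values were seen, to the marker lists by which spots were ranked.

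In the top quintile of spots by MHC class II level, Ppt1 stood at 37.4 CPM against 26.3 CPM in the other spots of WT. In C75S it stood at 36.1 against 26.1 CPM. The log2 ratios were 0.51 (0.32 to 0.70) and 0.47 (0.27 to 0.67), and 0.43 (0.22 to 0.63) in C75S without the spot of 12 UMIs. Of the 11062 genes tested, 5.93% were called higher and 0.0723% lower in such spots in both sections, and Ppt1 was the 1 member of 9 called higher. It stayed higher in both sections when spots were thinned to 3000 UMIs (0.63 and 0.54), kept only between 10000 and 30000 UMIs (0.42 and 0.44) or taken as the top 10% (0.66 and 0.71). Mtdh had 0.20 (0.07 to 0.32) and 0.11 (-0.03 to 0.24) in the same spots, under the called size. Because the list was chosen from Ppt1 counts of these spots, the Ppt1 values are a description.

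Spots rich in other markers gave Ppt1 calls in 1 section but not in both, beside the share of all genes called higher in that section alone of 5.94% for Kupffer cell, 12.6% for cholangiocyte and 5.11% for stellate cell markers. In spots rich in the cholangiocyte genes Spp1 and Epcam it had 36.5 against 26.3 CPM in WT (0.47, 0.28 to 0.66) and 29.7 against 27.5 CPM in C75S (0.11, -0.11 to 0.32, and 0.03 without the spot of 12 UMIs). In spots rich in Kupffer cell genes other than Marco it had 0.08 (-0.13 to 0.29) in WT and 0.29 (0.09 to 0.49) in C75S. In spots rich in stellate cell genes it had 0.12 (-0.10 to 0.32) and 0.26 (0.05 to 0.46). The difference between the sections was not tested in these spots. Genes called higher in both sections made up 4.26% of those tested for the cholangiocyte list, 2.68% for the Kupffer cell list and 2.05% for the stellate cell list, those called lower 1%, 0.579% and 0.371%, and 0 of the 9 members were among them.

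**Figure D5:**
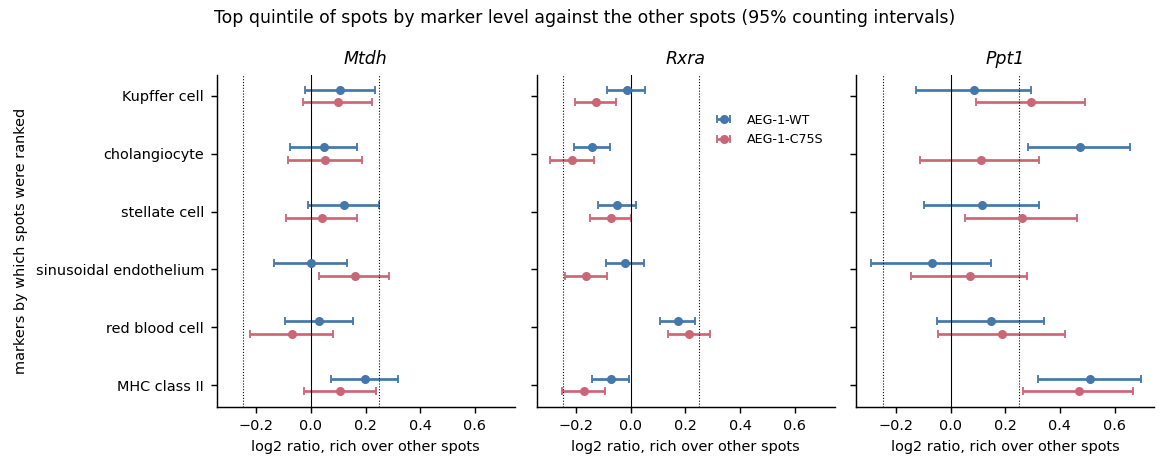
log2 ratio of the level in the top quintile of spots by each marker list over that in the other spots, in the WT (blue) and C75S (red) section, with 95% counting intervals and dotted lines at a size of 0.25, for Mtdh, Rxra and Ppt1. The Ppt1 values in MHC class II-rich spots (0.51 and 0.47) pass 0.25 in both sections, and no Mtdh or Rxra value passes it. The MHC class II list was added after the Ppt1 counts of the spots were seen, so these Ppt1 values are a description.

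Rxra was lower in spots with bile duct signal, at -0.14 (-0.21 to -0.08) in WT and -0.22 (-0.30 to -0.14) in C75S, and was higher in spots rich in haemoglobin genes (0.17, 0.11 to 0.23, and 0.21, 0.13 to 0.29). Rxra was also lower in MHC class II-rich spots (-0.07, -0.14 to -0.005, in WT and -0.17, -0.25 to -0.09, in C75S). In spots rich in Kupffer cell and sinusoidal endothelium genes it had -0.13 and -0.16 in C75S, with intervals below 0. In WT it had -0.02 in both, with intervals that include 0. All of these are under the called size. The haemoglobin-rich spots lay differently along the lobule in the sections. In WT 78 of 461 were in the periportal and 116 in the pericentral quintile, and in C75S 130 and 93 of 432. The cholangiocyte-rich spots lay more often in the periportal than in the pericentral quintile, with 165 of 461 in the periportal quintile and 25 in the pericentral quintile of WT and 134 and 36 of 432 in C75S. Ppt2 was lower in the haemoglobin-rich spots of C75S (59.3 against 72.5 CPM, -0.29, -0.46 to -0.13), where the median depth was 12147 UMIs against 20526 in the other spots. Genes called lower in those C75S spots were 2.33% of all. In WT the corresponding value was -0.02 (-0.15 to 0.11). Members called in both sections in spots rich in haemoglobin or sinusoidal endothelium genes numbered 0, beside 0.94% and 0.714% of all genes called higher and 0.28% and 0.181% called lower.

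The genes with the profiles most like those of Mtdh, Snd1 and Rxra were ranked by Pearson's r of log2(CPM + 1) over the 10 groups of spots (5 quintiles in 2 sections), among 4356 other genes with at least 1000 UMIs in each section. The groups share 2 libraries and the axis genes, so r is a description. For Rxra the closest were Gcdh, an enzyme of lysine breakdown (r = 0.996), Dpys, an enzyme of pyrimidine breakdown (0.988), and Iqgap2, a scaffold protein (0.981). Like Rxra, Gcdh was lower in C75S (-0.24, -0.27 to -0.21) and higher pericentrally in both sections (0.31 and 0.33). The ranking used these same 10 groups, so shared directions, here and for Snd1 below, follow from it and are no separate result. Among the 3 closest to Snd1 were Net1 (0.918) and Rpn2 (0.916), both higher in C75S, by 0.34 and 0.28. For Mtdh they were Znhit1 (0.896), Nek9 (0.859) and Ncl (0.850), on a Mtdh range of only 0.09.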

How the data were processed

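The deposited tables hold raw UMI counts per gene and spot, made by the authors with Space Ranger 2.0.1 on mm10 and without normalization. Seurat 4.3.0 is also named in the submitters' processing notes. Values of other samples were in 0 columns. For the 11 symbols with several entries the first was taken.

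Spots above 50000 UMIs, the UMI limit of the study's methods, were removed. Counts were summed over spots and divided by the total (CPM). Intervals are 95% exact Poisson intervals for levels, exact binomial (Clopper-Pearson) intervals for shares and for ratios of paired sums, and Wald intervals for differences of gradients, all of counting error only. Genes from each of 7 related lists were named when called, up to 4 with the most UMIs per direction, and the 3 most alike genes for Mtdh, Snd1 and Rxra, of which 1 for Snd1 is not reported here. The members, lists and alternatives were chosen with earlier results of these data known.

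Python 3.11.15, numpy 2.4.6, scipy 1.17.1, pandas 2.3.3 and edgeR 4.0.16 (TMM factors only) were used. On simulated counts, the intervals of the ratio between sections held the true value in 95.7% of 11987 genes. Those counts were Poisson draws without added scatter between spots or sections. The share thus checks the calculation and not the spread of real counts. Sequences and positions were read from the GRCm38 genome and GENCODE M21. Abhd17a and Hba-a1 were not analysed here.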

Additional observations from a re-analysis of the deposited data

Results flagged for a closer look

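The gradients of Ppt1 and Lypla2 had opposite signs in the WT and the C75S section, which is why they are listed, but the signs depended on the settings. With 1 section per genotype neither difference was tested. For Ppt1 the gradient was -0.18 (-0.46 to 0.09) in WT and 0.06 (-0.21 to 0.34) in C75S, a difference of 0.25 (-0.13 to 0.63, counting error). Its level from periportal to pericentral was 30.04, 29.2, 30.2, 26.4 and 26.5 CPM in WT and 26.2, 31.2, 27.4, 27.0 and 27.3 CPM in C75S. Without the 10% of spots richest in portal tract markers both gradients were above 0, at 0.15 (-0.15 to 0.45) and 0.16 (-0.13 to 0.45). For Lypla2 the gradient was 0.08 (-0.10 to 0.25) in WT and -0.07 (-0.24 to 0.09) in C75S, a difference of -0.15 (-0.39 to 0.09). Its level was 65.6, 64.0, 59.7, 67.1 and 69.2 CPM in WT and 73.1, 68.5, 65.3, 71.6 and 69.5 CPM in C75S. At these settings the intervals of all 4 gradients and of both differences include 0. Of 9 other settings, the signs were not opposite in 6 for Ppt1 and in 5 for Lypla2. After centring on the median gene the gradients in WT and C75S were -0.30 (-0.57 to -0.02) and -0.03 for Ppt1 and -0.04 and -0.17 for Lypla2. With totals that left out the 20 most abundant genes they were -0.30 (-0.58 to -0.03) and -0.05 for Ppt1 and -0.04 and -0.18 (-0.35 to -0.02) for Lypla2. With 3 groups along the axis they were -0.15 and -0.06 for Ppt1 and 0.14 (0.002 to 0.27) and 0.006 for Lypla2.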

How the results depend on the processing

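No paired analysis was possible because each genotype had 1 section and no test was run. Of the ratios between sections, 72 moved by less than their counting interval and 9 by more, of the gradients 151 and 11, of the ratios in marker-rich spots 277 and 47, and of the counts 71 stayed within 1.5 times and 25 did not. No called value changed sign under any alternative run. Thinning to 3000 UMIs gave Mtdh a ratio of 0.14 (-0.04 to 0.33) and gradients of 0.35 (-0.07 to 0.77) and -0.28 (-0.69 to 0.13), all with intervals that include 0. The 2 members called lower became 1 with equal weight per spot, totals that left out the 20 most abundant genes, TMM factors or centring on the median gene, and 0 with thinning or a log2 size of 0.5. The 1 member called pericentrally became 0 with axis genes Hal, Gls2, Hsd17b13, Cyp1a2 and Oat, 3 groups along the axis, equal weight, totals without the 20 most abundant genes, centring, thinning, spots of 10000 to 30000 UMIs, no portal-rich spots, or a size of 0.5.

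Over all genes, the calls between sections were 953 higher and 1962 lower (32.7% higher of those called). A size of 0.5 gave 343 and 759, and thinning gave 1177 lower. The share higher was 44.2% with totals without the 20 most abundant genes, 48.0% with TMM factors and 47.0% after centring. Along the axis 990 were higher and 346 lower pericentrally (74.1% higher). Totals without those 20 genes gave 515 and 567 (47.6%), centring 547 and 534 (50.6%), thinning 402 and 143, and a size of 0.5 gave 360 higher (60.9%). The ratio of Lypla1 between sections was 0.02 with TMM factors and after centring.

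The depth limits what can be seen of the rarer members: Zdhhc6 had 727 and 587 UMIs over the sections, and its gradient intervals spanned -0.12 to 0.60. Spots are not replicates, and nothing here measures the spread between animals.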
